A study of Mus musculus with 6 samples.

Results

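The genes described are the receptors, kinases, transcription factor and feedback inhibitors of the IL-6 cytokine family pathway, 10 genes chosen by name: the receptors Il6ra, Il6st, Lifr and Osmr, the kinases Jak1 and Jak2, the factor Stat3, and the inhibitors Socs2, Socs3 and Cish. They were measured among 19938 mouse genes that had a probe set with 1 gene symbol, and each was read from its probe set with the highest mean over the 6 arrays. Livers came from 3 TLR3-/- mice and 3 TLR3wt mice, 1 array per mouse. All mice were 3 months old, untreated, of the C57Bl/6 strain by the series design, and bred by the submitters under SPF conditions. TLR3 is an endosomal sensor of double-stranded RNA. How the TLR3-/- allele was made, and whether it is limited to some cells, is not in the labels.

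Cytokines of the IL-6 family bind a ligand-specific receptor chain, which then joins a shared signalling chain. The receptor-bound Janus kinases phosphorylate STAT3, which enters the nucleus and, in hepatocytes, turns on acute-phase genes. STAT3 also induces Socs3, whose product blocks the receptor complex, while Cish and Socs2 are known in liver chiefly as targets of STAT5 downstream of the growth hormone receptor.

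Promoter sequence is shown for the inducible inhibitors, because STAT proteins are known to bind at their genes. The sequences are RefSeq's, build GRCm38.p6, in windows from 250 bases before to 50 after each annotated gene start, and such windows were given for 9 of the 10 genes (none for Socs2). Capitals mark TTCNNNGAA, the consensus that STAT dimers recognise, which reads the same on both strands. The Socs3 stretch is chr11:117969367-117969616 on the minus strand, and the Cish stretch is chr9:107296654-107296683 on the plus strand.
Socs3: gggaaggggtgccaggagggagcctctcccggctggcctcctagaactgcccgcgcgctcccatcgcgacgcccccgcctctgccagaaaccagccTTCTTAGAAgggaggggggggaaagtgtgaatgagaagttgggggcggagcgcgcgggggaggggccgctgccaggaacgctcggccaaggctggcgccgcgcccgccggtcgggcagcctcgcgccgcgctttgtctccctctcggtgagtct
Cish: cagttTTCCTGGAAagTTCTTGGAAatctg
The Socs3 window held 1 match, which begins 154 bases before the annotated start, and the Cish window held 2, the first at the start and the second 11 bases further on, without overlap. The windows of the other 7 genes held 0. Of all 32851 windows of this length, 8.3% held a match and 0.457% held at least 2. A match describes letters in this window and says nothing of binding in these livers.

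None of the 10 genes differed between TLR3-/- and TLR3wt livers at the threshold used (limma, adjusted p of 0.05 over 16639 probe sets, a test that borrows information on the spread from all probe sets). Their limma adjusted p lay between 0.187 for Il6ra and 0.959 for Stat3. The same fit called 0.186% of the probe sets, 0.138% higher and 0.0481% lower in TLR3-/-, and at an unadjusted p of 0.05 it passed 1 of the 10 genes, Il6ra, against 15.7% of 10347 genes. The 3 livers of one genotype lay wholly apart from the other 3 for Il6ra and Jak1, both lower in TLR3-/-, and for Jak2, which was higher. Over all genes 7.62% were apart and lower, 15.1% apart and higher, and 22.7% apart in either direction, so 3 of 10 is near the background. With 3 against 3 mice, an exact permutation test of a single gene cannot go below 0.100, the value it gave for each of these 3 genes (two-sided).

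The median difference of the 10 genes, TLR3-/- minus TLR3wt, was -0.11 on the log2 scale, beside 0.03 over the 10347 genes. It was -0.02 without TLR3-/- replicate 2 and -0.04 without TLR3wt replicate 3. Jak2 alone had a higher mean in TLR3-/- livers, and 9 genes had a lower one, where 39.1% of all genes did. Of those 9, Stat3, Socs2 and Socs3 took the other sign when some single livers were left out, and Il6st came to 0.00.

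**Figure D1:**
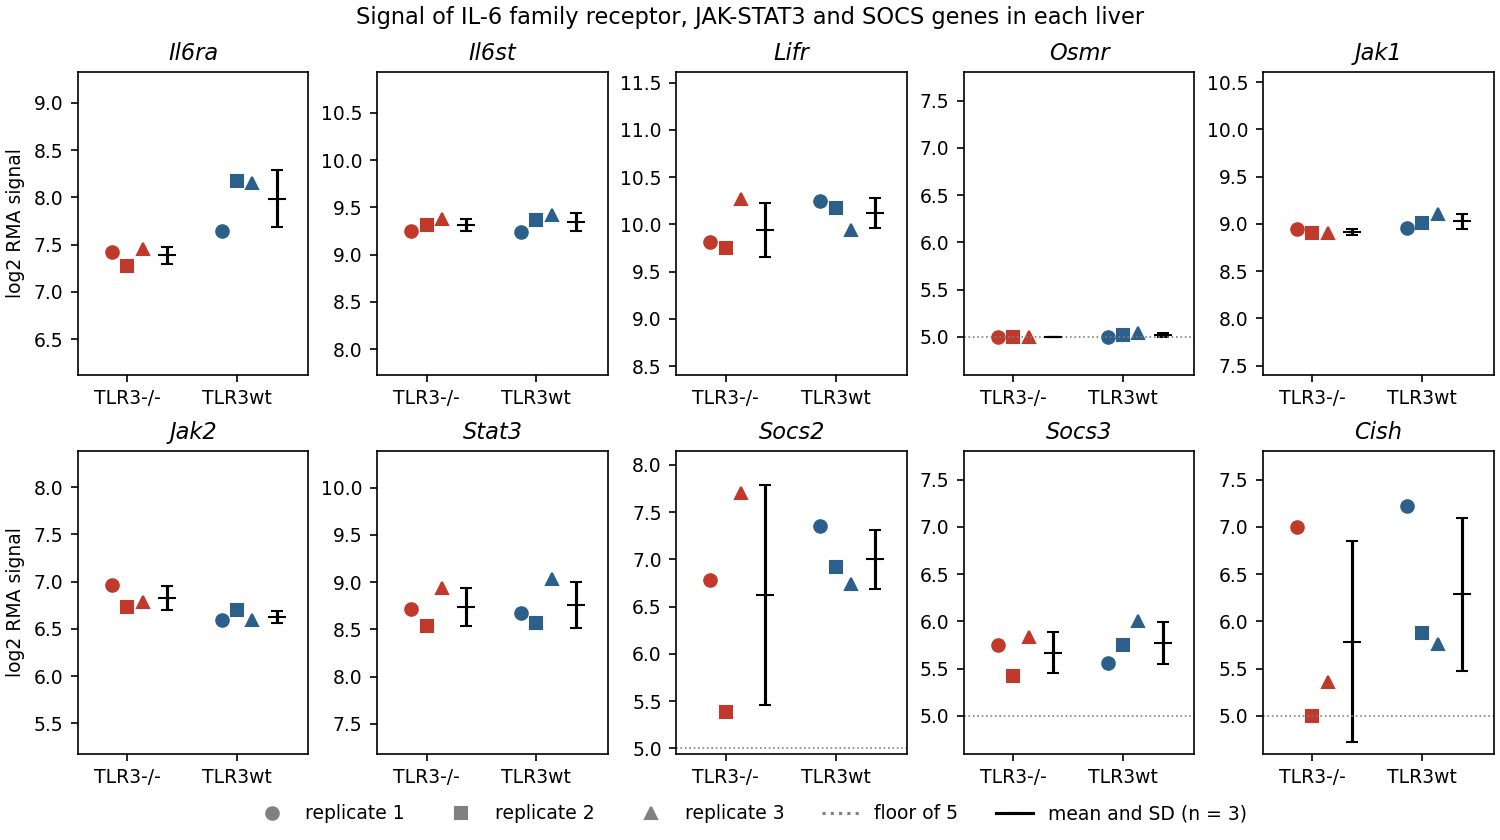
Log2 RMA signal of each of the 10 genes (vertical axis, the same span of values in each panel) in the 3 TLR3-/- livers (red, left) and the 3 TLR3wt livers (blue, right). Symbols mark the replicate and black bars the mean with SD. Il6ra is lower in all 3 TLR3-/- livers, while Socs2 (brighter probe set) and Cish scatter within a genotype by up to 2.32.

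The arrays were alike in overall signal. Values are log2 RMA signal with a floor of exactly 5, and 15081 to 15226 probe sets per array stood above it. Depth has no meaning for an array, and the number of mice limits the precision. TLR3wt replicate 3 stood apart in its acute-phase genes (below). The hepatocyte marker Alb was at 13.02 to 13.09 in TLR3-/- and 13.07 to 13.09 in TLR3wt livers, and 9 of 9 measured hepatocyte markers were above the floor. All measured markers of B cells (5), NK cells (6) and neutrophils (6) were at the floor on every array, as was Tlr3 itself, so the genotype labels could not be checked from the targeted gene.

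Il6ra, the ligand-binding chain for IL-6, had the largest difference among the receptors. Its signal was 7.42, 7.28 and 7.46 in TLR3-/- livers, against 7.64, 8.17 and 8.15 in TLR3wt livers. Every TLR3-/- liver was below every TLR3wt liver, with a gap of 0.18 between the groups. The means were 7.39 ± 0.09 in TLR3-/- and 7.99 ± 0.30 in TLR3wt livers (SD, n = 3 each), a log2 difference of -0.60 with a 95% interval of -0.98 to -0.23, or 1.52-fold lower. It did not pass the adjustment (limma unadjusted p = 0.00745, adjusted p = 0.187). TLR3wt replicate 1 lay closer to the TLR3-/- livers than to the other TLR3wt livers. Leaving out 1 liver in turn gave differences of -0.78 to -0.51, and the unadjusted p was under 0.05 in 14 of 14 alternative fits while the adjusted p was not in any (0.0875 to 0.481, limma).

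Markers of macrophages were lower in the same livers as Il6ra. RNA was taken from whole liver, where fewer cells of a type and less RNA per cell cannot be told apart. Of 15 macrophage markers, which include those of Kupffer cells, 14 had a lower mean in TLR3-/- livers. Of these, 13 were lower without overlap, where 7.62% of all genes were. None passed limma's adjusted threshold (13 at an unadjusted p under 0.05, beside 15.7% of all genes). Their summed level on the log2 scale was 10.46 to 11.06 in TLR3-/- and 11.38 to 11.83 in TLR3wt livers, and none was at the floor on all arrays. The mean of the 15 markers relative to the TLR3wt mean was -0.65, -1.08 and -0.54 in the 3 TLR3-/- livers, against -0.23, 0.22 and 0.01 in the 3 TLR3wt livers. Ranked by this mean or by Il6ra, the 6 livers fell in the same order. The mean of the 9 hepatocyte markers was -0.15, -0.12 and -0.08 in TLR3-/- livers and -0.03, 0.07 and -0.04 in TLR3wt livers, also without overlap, with 6 of 9 lower and summed levels of 15.40 in every TLR3-/- liver and 15.41 to 15.49 in TLR3wt livers. Tat, a tyrosine-degrading enzyme gene of the hepatocyte list, had a difference of -0.39 (limma adjusted p = 0.187). The median difference of that list was only -0.01. In it 3 markers lay apart and lower, Tat among them, and 1, Cyp2e1, lay apart and higher (0.25). Endothelial markers summed to 10.71 to 10.98 in TLR3-/- and 10.68 to 11.05 in TLR3wt livers, with overlap, and 2 of 10 lay apart and lower. Stellate cell markers summed to 10.71 to 10.80 in TLR3-/- and 10.62 to 10.74 in TLR3wt livers, also with overlap. Of the 9 measured stellate cell markers, 3 lay apart and lower. In both lists 0 lay apart and higher. The part of any of these in the Il6ra difference was not tested.

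The shared signalling chain and the other receptors showed no such separation. Il6st encodes gp130, the chain through which most receptors of this family signal. It was 9.25, 9.31 and 9.38 in TLR3-/- livers, against 9.24, 9.37 and 9.42 in TLR3wt livers. The groups overlapped almost fully, and the interval of the difference, -0.20 to 0.14 around -0.03, is one of the narrower ones in the set (limma adjusted p = 0.861). Lifr, the receptor of leukaemia inhibitory factor, was 9.81, 9.75 and 10.27 in TLR3-/- livers and 10.25, 10.17 and 9.94 in TLR3wt livers. TLR3-/- replicate 3 was the highest of the 6, although the other TLR3-/- livers were the lowest, and the difference of -0.18 (95% interval -0.57 to 0.21, limma adjusted p = 0.665) was -0.34 without that liver.

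Osmr, the receptor chain for oncostatin M, was at the floor of 5 on all 3 TLR3-/- arrays and on 1 TLR3wt array. The other TLR3wt arrays gave 5.02 and 5.04. The TLR3wt mean was 5.02. Arrays of both genotypes lay at the floor, so no bound on the fold follows, and no difference was measurable (limma adjusted p = 0.897). Its probe set had one of the smallest spreads of all for this reason, and its level in these livers is known only as at or near the floor.

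Both Janus kinases of the set separated by genotype, in opposite directions and by narrow margins. Over all genes 7.62% lay apart and lower and 15.1% apart and higher. Tyk2, a Janus kinase outside the set, overlapped between genotypes (difference 0.03, limma adjusted p = 0.902). Jak1, the kinase held to be the main one at the shared receptor chain, was 8.95, 8.90 and 8.90 in TLR3-/- livers, against 8.96, 9.01 and 9.11 in TLR3wt livers. The groups were only 0.01 apart, and the difference was -0.11 (95% interval -0.25 to 0.04, limma adjusted p = 0.465), or -0.07 without TLR3wt replicate 3. Jak2, which also serves the growth hormone receptor, was 6.97, 6.73 and 6.78 in TLR3-/- livers, against 6.59, 6.70 and 6.59 in TLR3wt livers. The gap was 0.02. Its difference of 0.20 (standard error 0.08, limma unadjusted p = 0.0502, adjusted p = 0.346) ranged from 0.12 to 0.24 when 1 liver was left out. Where groups do not overlap, leaving out 1 liver cannot turn the sign.

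**Figure D2:**
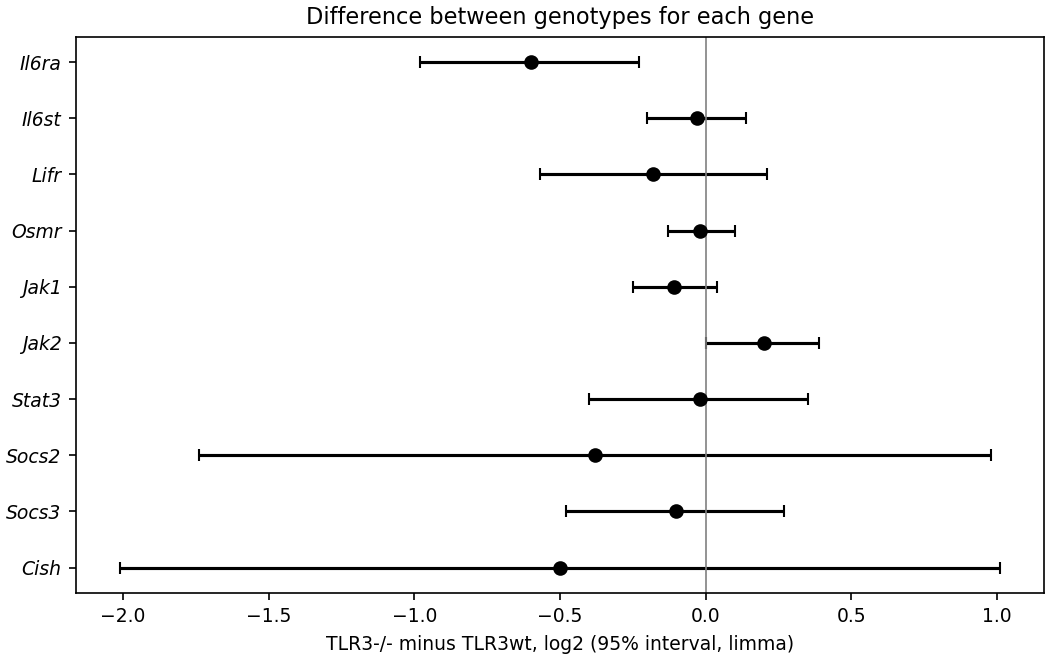
TLR3-/- minus TLR3wt difference in mean log2 signal for the 10 genes (points) with 95% intervals from limma (bars). The interval lies wholly below 0 for Il6ra alone. The widest belong to Cish (-2.01 to 1.01) and to Socs2 as read by its brighter probe set (-1.74 to 0.98). The second Socs2 probe set, not drawn, gave -0.41 to 0.64.

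Stat3 varied between mice without regard to genotype. Its signal was 8.72, 8.54 and 8.94 in TLR3-/- livers and 8.67, 8.57 and 9.03 in TLR3wt livers. Each genotype held 1 high liver, replicate 3 in both, although these numbers do not pair the mice. The means were 8.73 ± 0.20 in TLR3-/- and 8.76 ± 0.24 in TLR3wt livers (SD, n = 3 each), a difference of -0.02 with a 95% interval of -0.40 to 0.35 (limma adjusted p = 0.959). Without TLR3wt replicate 3 the difference was 0.11.

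Socs3, the inhibitor that STAT3 induces, had a signal close to the floor. It was 5.75, 5.42 and 5.83 in TLR3-/- livers and 5.56, 5.75 and 6.00 in TLR3wt livers. The lowest and the highest livers for Socs3 were those for Stat3 too, TLR3-/- replicate 2 and TLR3wt replicate 3. The difference was -0.10 (95% interval -0.48 to 0.27, limma adjusted p = 0.795), and a second Socs3 probe set was at the floor on all 6 arrays.

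Cish, and Socs2 as read by its brighter probe set, varied more between mice of one genotype than nearly all other probe sets tested. The SD between livers of one genotype, pooled over both, was 0.95 for Cish and 0.85 for Socs2, against a median of 0.11 over all tested probe sets. Only 13 of 16639 probe sets (0.0781%) had a larger SD than Cish and 25 (0.150%) a larger one than Socs2. For the other 8 genes the SD was 0.01 to 0.23.

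**Figure D3:**
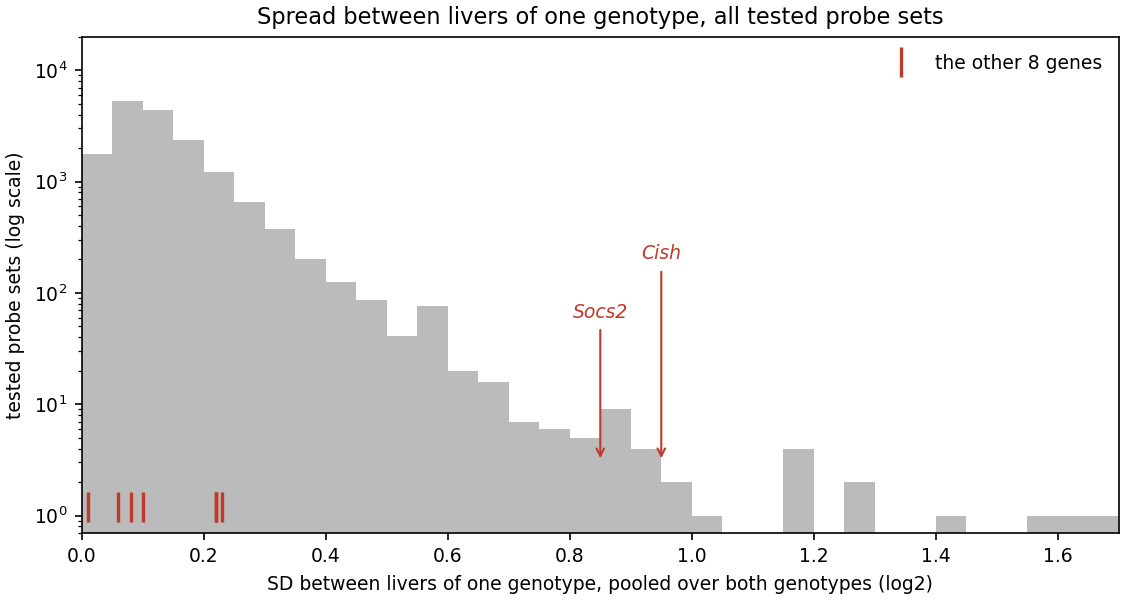
Number of tested probe sets (vertical axis, log scale) by the SD of log2 signal between livers of one genotype, pooled over both genotypes (horizontal axis). Arrows mark Socs2 (0.85, brighter probe set) and Cish (0.95) in the far right tail, and red ticks mark the other 8 genes, which lie at 0.23 or below.

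Cish, an inhibitor induced by STAT5, was 7.0, at the floor of 5, and 5.36 in TLR3-/- livers, against 7.22, 5.88 and 5.76 in TLR3wt livers. Replicate 1 of each genotype was high, and TLR3-/- replicate 2 was the liver at the floor. The means were 5.79 ± 1.07 in TLR3-/- and 6.29 ± 0.81 in TLR3wt livers (SD, n = 3 each). The difference of -0.50 had a 95% interval of -2.01 to 1.01 (limma adjusted p = 0.761), an interval that holds a 2-fold change in either direction. Leaving out TLR3wt replicate 1 gave -0.04 and leaving out TLR3-/- replicate 1 gave -1.11.

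Socs2, an inhibitor of growth hormone signalling, was 6.78, 5.39 and 7.70 in TLR3-/- livers, against 7.35, 6.92 and 6.74 in TLR3wt livers. The TLR3-/- livers thus held both the lowest and the highest value, with all 3 TLR3wt livers between them. The difference was -0.38 (95% interval -1.74 to 0.98, limma adjusted p = 0.798), but 0.24 without TLR3-/- replicate 2 and -0.92 without TLR3-/- replicate 3. A second probe set annotated to Socs2 gave 5.18, the floor of 5, and 5.84 in TLR3-/- and 5.24, 5.31 and 5.13 in TLR3wt livers, a difference of 0.11 (limma adjusted p = 0.847). Its SD between livers of one genotype was 0.32, exceeded by 4.85% of probe sets, and whether both probe sets read the same transcript could not be settled here. By probe set number, the brighter one falls between those of the chromosome 12 genes Apob and Fos. The second falls between those of Stab2 and Lyz2 on chromosome 10, where Socs2 lies. The brighter one may thus read another locus. Both probe sets placed TLR3-/- replicate 3 highest and replicate 2 lowest, while their order of the TLR3wt livers differed.

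Cish and Socs2 did not rise and fall together in every mouse. With Socs2 read by its brighter probe set, both were highest in replicate 1 and lowest in replicate 3 within TLR3wt. TLR3-/- replicate 3, however, had the highest Socs2 of all and the second lowest Cish. Bcl6, a repressor that growth hormone and STAT5 are known to keep low in liver, was picked out after its values were seen. It was 5.99, 8.07 and 7.69 in TLR3-/- livers and 5.90, 6.47 and 7.82 in TLR3wt livers. Livers with high Cish had low Bcl6, and from the highest Cish to the lowest the rank order of Bcl6 was reversed except that TLR3wt replicate 3 and TLR3-/- replicate 3 changed places. Socs2 did not follow this in TLR3-/- replicate 3, which had the highest Socs2 beside a Bcl6 of 7.69.

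TLR3-/- replicate 2 was the lowest of the 6 livers for 7 of the 10 genes (Il6ra, Lifr, Jak1, Stat3, Socs2, Socs3 and Cish). TLR3wt replicate 3 was the highest for 5 (Il6st, Osmr, Jak1, Stat3 and Socs3). Some of these margins were tiny: Jak1 was 8.90 in both TLR3-/- replicates 2 and 3, and the highest Osmr was 5.04, near the floor. How often each liver was lowest or highest over all genes was not counted, and the macrophage marker mean was lowest in TLR3-/- replicate 2 too.

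The profiles most like those of the inhibitors were sought among 9092 genes above the floor on all 6 arrays, by the root mean square difference between profiles centred on their own means. For Socs2, by its brighter probe set, the nearest was Got1, a cytosolic aspartate aminotransferase, at 0.35. B3galt1 at 0.50 and Egfr at 0.51 followed, against an SD of 0.72 for Socs2 itself over the 6 livers. Got1 was 9.91, 8.87 and 10.21 in TLR3-/- livers and 10.40, 10.49 and 10.01 in TLR3wt livers. Its low TLR3-/- replicate 2 follows from the search, which picks like profiles out of many. Its highest TLR3wt liver was replicate 2, where that of Socs2 was replicate 1. For Cish the nearest were Phlda1 at 0.38, Arid5b at 0.39 and Aacs at 0.43, against an SD of 0.81. For Socs3 they were Ifitm1 at 0.04, Drd4 at 0.06 and Igsf8 at 0.07, against an SD of 0.19.

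**Figure D4:**
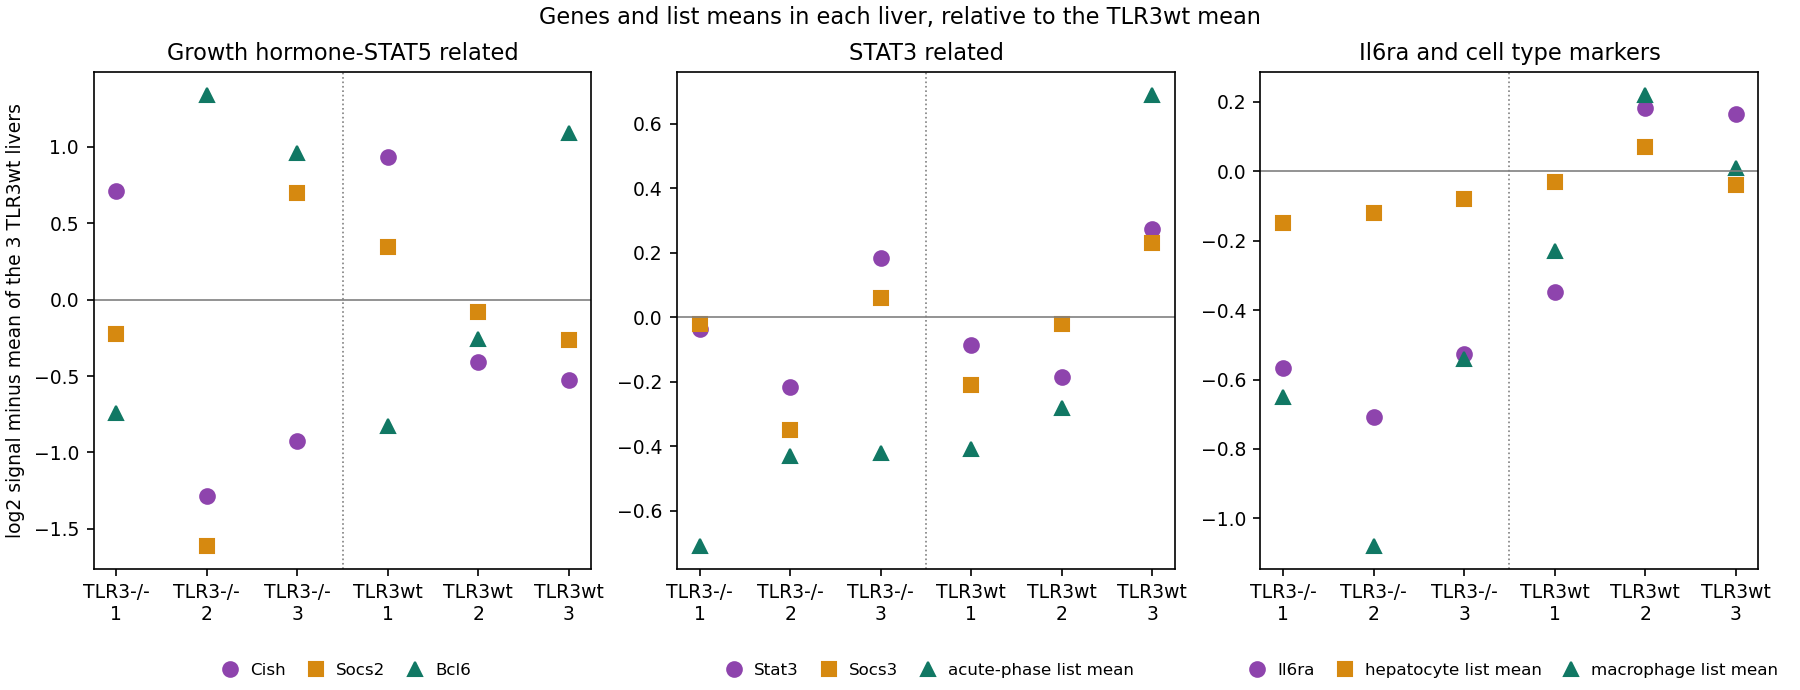
Log2 signal minus the mean of the 3 TLR3wt livers (vertical axis) in each of the 6 livers, TLR3-/- left of the dotted line, for Cish, Socs2 and Bcl6 (left panel), for Stat3, Socs3 and the mean of 23 acute-phase genes (middle), and for Il6ra with the means of hepatocyte and macrophage markers (right). Bcl6, picked after its values were seen, is low where Cish is high. Socs2, read by its brighter probe set, and Bcl6 are however both high in TLR3-/- replicate 3. The acute-phase mean stands out in TLR3wt replicate 3 at 0.69, and Il6ra ranks the livers as the macrophage marker mean does.

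Ligands and remaining receptors of the family were scarcely detected. Of 8 ligand and ligand-partner genes with a probe set, Il6, Il11, Lif, Osm, Clcf1 and Ebi3 were at the floor on all 6 arrays. Il27 averaged 5.10 in TLR3wt livers with 2 of 3 TLR3-/- livers at the floor, and Ctf1 was at the floor in all 3 TLR3-/- livers with a mean of 5.03 in TLR3wt livers. Neither passed (limma adjusted p = 0.600 for Il27 and 0.856 for Ctf1). Cntfr and Il31ra were at the floor throughout, and Il27ra was at the floor in all 3 TLR3-/- livers and averaged 5.02 in TLR3wt livers.

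Other genes of JAK-STAT signalling differed little. Of 9 measured receptors that signal through JAKs, 5 were higher, 4 lower and 0 passed limma's adjusted threshold. At an unadjusted p under 0.05 were 2 of the 9, beside 15.7% of all genes. These were Il10rb, a chain shared by IL-10 and IL-22 receptors, with means of 6.20 in TLR3-/- livers and 6.49 in TLR3wt livers (adjusted p = 0.276), and Ghr, the growth hormone receptor, with means of 10.66 in TLR3-/- livers and 10.41 in TLR3wt livers (adjusted p = 0.292). The interferon receptor chain Ifnar1 had a difference of 0.18. Of 5 other kinases and STAT genes, 0 passed and 1 had an unadjusted p under 0.05, beside 15.7% of all genes. This was Stat5b, the main growth hormone-responsive STAT of liver. Stat5b averaged 7.57 in TLR3-/- livers and 7.35 in TLR3wt livers (limma adjusted p = 0.338). Stat6 and Stat2 had differences of -0.04 and -0.05, and that of Stat2 was 0.02 without TLR3-/- replicate 1.

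Inhibitors outside the SOCS genes described above did not pass the adjusted threshold either. Of 14, 9 were higher and 5 lower with a median difference of 0.06, and limma passed 0. At an unadjusted p under 0.05 were 2 of the 14, beside 15.7% of all genes. Ptpn1, a phosphatase that acts on Janus kinases, averaged 6.41 in TLR3-/- livers and 6.71 in TLR3wt livers (adjusted p = 0.262), the adaptor Sh2b3 averaged 6.32 in TLR3-/- livers and 6.51 in TLR3wt livers (adjusted p = 0.301), and the SUMO ligase Pias2 had a difference of 0.11. For 6 genes of this list the groups did not overlap (4 higher, 2 lower), and these had differences no larger than 0.30 in size. Over all genes 15.1% were apart and higher and 7.62% apart and lower.

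Of 23 measured acute-phase genes that lie downstream of STAT3 in hepatocytes, 21 were lower in TLR3-/- livers, with a median difference of -0.31. Over all genes 39.1% were lower. In the list 7 lay apart and lower and 1 apart and higher, beside 7.62% and 15.1% of all genes. An unadjusted limma p under 0.05 was found for 6, beside 15.7% of all genes. The mean of the list was -0.71, -0.43 and -0.42 in the 3 TLR3-/- livers relative to the TLR3wt mean, against -0.41, -0.28 and 0.69 in the 3 TLR3wt livers. TLR3wt replicate 3 alone was well above the rest, and without it the median difference was -0.04. The lowest difference, that of Lcn2, was -2.58 with that liver and -1.56 without it. That liver also had the highest Stat3 and Socs3, while TLR3-/- replicate 3 had the next highest Stat3 and Socs3 with a list mean of -0.42. Saa3, a serum amyloid gene, was 5.20, 5.46 and 5.39 in TLR3-/- livers, against 6.19, 6.68 and 7.74 in TLR3wt livers (adjusted p = 0.181), and Orm2, an orosomucoid, was 6.90, 7.5 and 7.44 in TLR3-/- livers, against 7.98, 8.49 and 9.27 in TLR3wt livers (adjusted p = 0.194). Without TLR3wt replicate 3 the difference was -1.08 for Saa3, beside -1.52 with it, and -0.95 for Orm2, beside -1.30 with it. Both belong to families of close copies, which array probes may not separate.

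Only Hamp, which encodes the iron hormone hepcidin and is driven by BMP signals as well as by STAT3, passed in this list, and it was higher. It was 10.26, 10.43 and 10.56 in TLR3-/- livers, against 7.85, 7.25 and 8.42 in TLR3wt livers, and every TLR3-/- liver was above every TLR3wt liver. The difference was 2.57 on the log2 scale (limma adjusted p = 0.0465). The difference stayed between 2.28 and 2.86 in 14 alternative fits, with limma adjusted p of 0.0240 to 0.410. The call held in 3 of them (above the floor on all arrays, array weights, and without TLR3wt replicate 3) and was lost in the other 11. A near-identical second hepcidin gene exists in mice, so the signal may hold both.

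Regulators that STAT3 induces were mixed. Of 11 measured, 9 were lower and 2 higher, where 39.1% of all genes were lower. Limma passed 0, and 3 had an unadjusted p under 0.05, beside 15.7% of all genes. The kinase gene Pim3 averaged 6.77 in TLR3-/- livers and 7.43 in TLR3wt livers (adjusted p = 0.223). The transcription factor gene Cebpb averaged 7.45 in TLR3-/- livers and 8.16 in TLR3wt livers (adjusted p = 0.232), while Pim1, a related kinase, averaged 7.46 in TLR3-/- livers and 6.94 in TLR3wt livers (adjusted p = 0.253), a difference of 0.52 that was 0.33 without TLR3-/- replicate 1. These 3 of 11 were the only ones of the list without overlap between groups, beside 22.7% over all genes. The median of the list was -0.15, or -0.05 without TLR3wt replicate 3 and -0.28 without TLR3wt replicate 2.

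Of 10 genes that growth hormone and STAT5 control in liver, 7 were higher and 3 lower, and 0 passed. At an unadjusted limma p under 0.05 was 1 of the 10, beside 15.7% of all genes. Bcl6, which STAT5 is known to keep low, is among the 7 (difference 0.52), so the list mixes induced and repressed genes. The oxysterol hydroxylase gene Cyp7b1 was 10.68, 11.33 and 11.33 in TLR3-/- livers, against 10.45, 10.14 and 8.11 in TLR3wt livers (adjusted p = 0.334). Hsd3b5, a steroid dehydrogenase gene of this list, was 9.62, 9.57 and 9.74 in TLR3-/- livers, against 9.55, 9.23 and 8.08 in TLR3wt livers (adjusted p = 0.441), and Igfbp3 had a difference of -0.32, or -0.20 without TLR3-/- replicate 3. The low value of both enzymes lay in TLR3wt replicate 3. Without that liver the difference was 0.82 for Cyp7b1, beside 1.54 with it, and 0.26 for Hsd3b5, beside 0.69 with it. The median of the list, 0.11, was -0.03 without it and 0.28 without TLR3wt replicate 2. Igf1, the growth factor gene that growth hormone induces, had a difference of -0.05, with an SD of 0.20 in TLR3-/- livers and 0.03 in TLR3wt livers.

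**Figure D5:**
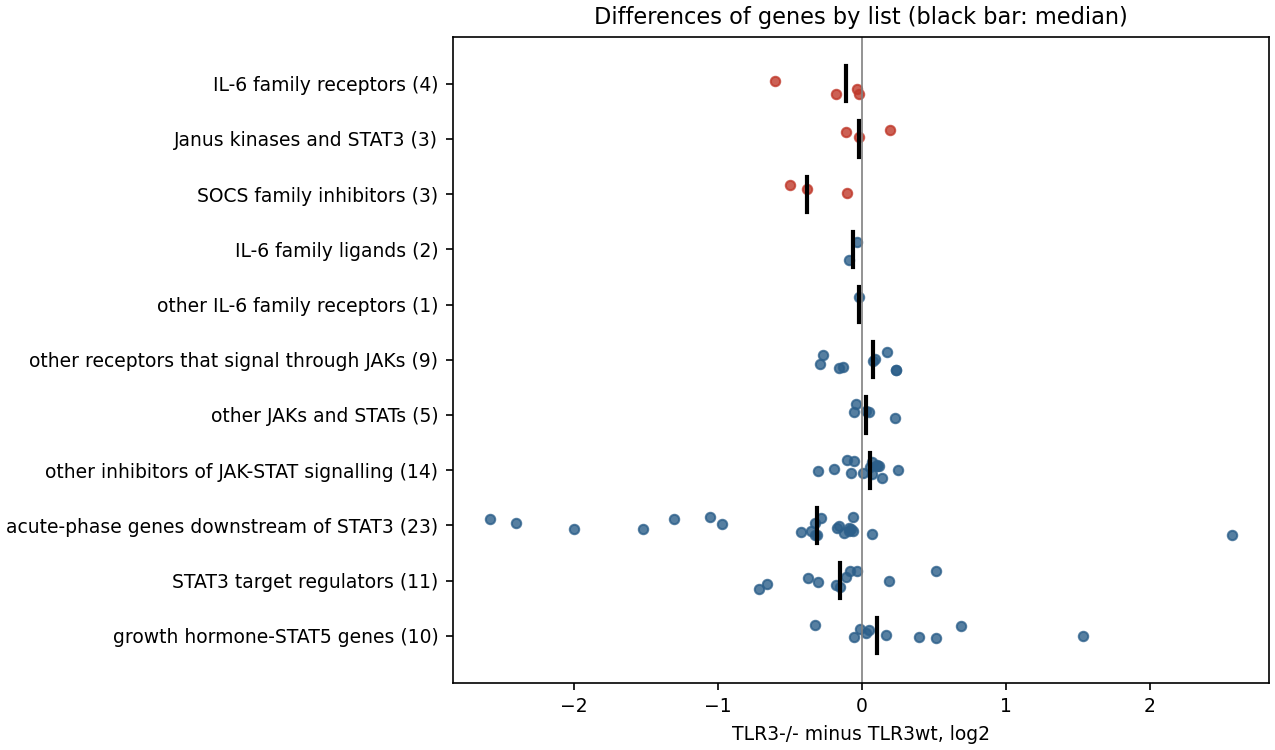
TLR3-/- minus TLR3wt log2 difference of each measured gene (points), by list with the number of measured genes in brackets, and the median of each list (black bars). The 10 genes of the set are in red. The acute-phase list has the lowest point at -2.58 (Lcn2, -1.56 without TLR3wt replicate 3) and the highest at 2.57 (Hamp).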

How the data were processed

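Total liver RNA of 3 TLR3-/- and 3 TLR3wt mice was measured on 1 array each, and groups were taken from the sample titles. The deposited log2 values are RMA signal; the submitters' processing notes name Affymetrix Expression Console. Their lowest value is exactly 5, set by a step that no source used here describes. Symbols follow GEO's platform annotation, updated by gene identifier to RefSeq's GRCm38.p6 table. Of 35557 probe sets, 18918 lay at the floor throughout and were dropped, and 16639 entered a fit with limma 3.58.1 in R 4.3.3 (lmFit and eBayes, group as the only term, two-sided, Benjamini-Hochberg adjustment). The procedure was tested on simulated data. Named are the 10 genes, in each other list the genes that passed and up to 3 with the smallest p, and the 3 nearest profiles for Socs2, Socs3 and Cish. Other genes are named as examples or at the floor. Genes and lists were chosen with earlier results of these data known. Alternatives covered filters, normalisation, array weights, variance, features tested, the replicate block and leaving out each mouse.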

Additional observations from a re-analysis of the deposited data

How the results depend on the processing

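None of the 10 genes passed limma's adjusted p of 0.05 in any of 14 alternative fits (13 for Osmr and Cish, which were not above the floor on all arrays). At an unadjusted p under 0.05 Il6ra passed in all 14, beside Jak2 with 1 probe set per gene and without TLR3-/- replicate 2, Lifr without TLR3-/- replicate 3 and Cish with the replicate block. The number of probe sets called over the whole array, 31, fell to 0 with no filter on low values (2018 at an unadjusted p under 0.05), and was 18 above the floor on all arrays, 9 after quantile normalisation again, 11 with centred arrays, 35 with array weights, 2 with ordinary pooled variance, 1 with 1 probe set per gene, 4 with the replicate block and 0 to 13 without 1 mouse. Same-numbered mice did not deviate together (correlations of 0.05, -0.01 and -0.06), so the numbers were not taken as pairs, and the block gave Cish a difference of -0.50 (limma adjusted p = 0.322). Leaving out 1 mouse gave -0.09 to 0.00 for Il6st, -0.13 to 0.11 for Stat3, -0.92 to 0.24 for Socs2 and -0.21 to 0.02 for Socs3. Signs turned for Stat3 with array weights (0.02), without TLR3-/- replicate 2 (0.07) and without TLR3wt replicate 3 (0.11), for Socs3 without TLR3-/- replicate 2 (0.02) and without TLR3wt replicate 3 (0.01), and for Socs2 without TLR3-/- replicate 2 (0.24) and in its second probe set (0.11). The cause was not tested. Signal at or near the floor limits Osmr, Socs3 and, in 1 liver, Cish.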
